A study of Danio rerio with 4 samples.

Results

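The 7 genes described here encode proteins of the growth cone, of the collapsin response mediator family and of axonal adhesion, and were followed in zebrafish eyes after optic nerve transection. They were gap43, the adhesion genes alcama, cntn1a and cntn2, and the collapsin response mediator genes dpysl3, dpysl5a and dpysl5b. All probes on the array were taken whose RefSeq accession, or failing that whose symbol, belongs to one of these genes. This gave 9 of the 14067 zebrafish probes, and 7 of the 5074 genes that could be named. cntn2 and dpysl3 had 2 probes each and the other genes had 1.

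Wild-type fish of the line labelled zdr, bought from a pet store and kept on a daily light cycle, had the eye muscles cut and the optic nerve severed, or the muscles alone cut in the sham operation. Lens and sclera were removed, and RNA of several fish was pooled at 3, 24 or 168 h after surgery. Each of 9 arrays carried 1 injured pool and 1 sham pool in different dyes, with 3 arrays per time, and 2 further arrays set pools of left eyes of unoperated fish against each other. No age is given, both operated groups share the muscle cut and the anaesthetic, and the pools hold the remaining eye tissue rather than isolated neurons. The channel labels name Cy5 for injured RNA throughout, whereas the array names put it in Cy3 on 6 arrays and in Cy5 on 3. All signs here follow the array names, as does the authors' deposited table.

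Fish, unlike mammals, regrow a cut optic nerve: retinal ganglion cells, the neurons whose axons form the nerve, extend new axons led by growth cones. GAP-43 is a membrane-attached phosphoprotein of growth cones and is widely used as a marker of regrowing axons. Alcam and the contactins are cell-surface proteins of the immunoglobulin superfamily on growing axons, the contactins being held by a lipid anchor. Collapsin response mediator proteins bind tubulin in the growth cone and relay the repellent signal of semaphorins.

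Most of these genes were detected on only some arrays or on none in RNA of the eye without lens and sclera. Detection in a channel means here a foreground intensity above the 95th percentile of the array's empty positions in the same dye. This limit is the same over the whole array and takes no account of the local background around a spot. The probes of alcama, cntn1a and dpysl5b were detected in at least 1 channel on all 9 arrays, which makes 3 of the 9 probes against a background of 23.5% of all probes. Another 3 probes, both of cntn2 and that of dpysl5a, were detected in no channel of those arrays, against a background of 10.8%. gap43 was detected on 2 arrays, and the dpysl3 probes on 2 and 6. With the 99th percentile as the limit, 0 of the member probes were detected on all 9 arrays, against a background of 6.02% of all probes.

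Detection depended on the dye as well as on the gene. Over all zebrafish probes 38.7% to 71.9% were detected in Cy3 and 17.2% to 44.8% in Cy5. Of the 173 Arabidopsis probes on the array, 20.8% to 53.2% passed the same limit in Cy3 and 2.89% to 17.3% in Cy5. Detection in Cy3 alone is therefore weak evidence of expression. dpysl5b was detected in Cy3 on 9 arrays and in Cy5 on 2, alcama on 9 and 6, and cntn1a on 9 and 9. In such RNA of mixed tissue, fewer cells of a type and less RNA per cell cannot be told apart.

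**Figure D1:**
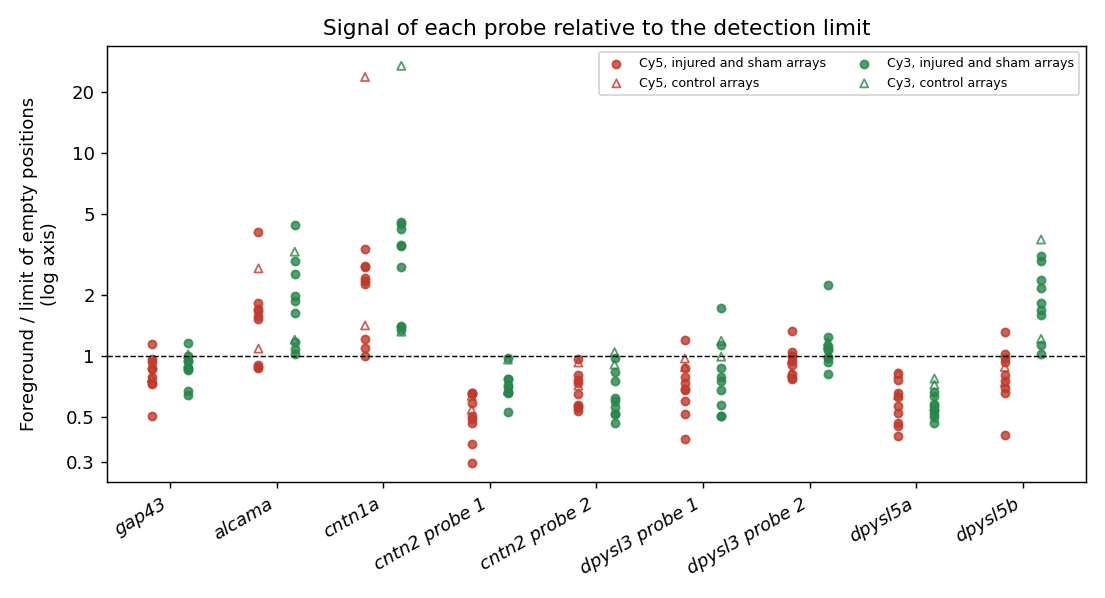
Foreground intensity of each member probe divided by the detection limit of its array and dye, on a log axis, with 1 point per channel (red, Cy5; green, Cy3; filled circles, the 9 arrays of injured against sham; open triangles, the 2 control arrays; dashed line, the limit). cntn1a lies above the line in 18 of 18 channels, dpysl5b mostly in Cy3, and cntn2 and dpysl5a in none of the 18.

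The tissue was checked against marker lists. Rod genes were detected on all 9 arrays for 7 of 8 measured genes and cone genes for 5 of 7. Of 8 measured ganglion cell genes 1 was detected on all 9 arrays and 1 on none, and of 7 lens genes, whose tissue had been removed, none was detected on all 9. At 3 h, however, all 7 lens genes, each by its brightest probe, were above 0 in the fit (median 0.82). Of these, 4 had an unadjusted p under 0.05 and 0 passed after adjustment (limma). The lens genes had array medians of 0.69, 2.15 and -0.01 on 3 h replicates 1, 2 and 3. Their summed normalised intensity at 3 h was 1658 to 14873 in injured and 1000.1 to 2064 in sham channels. That of the pigment epithelium list was 2839 to 4192 and 5725 to 10884. Above 0 at 3 h were 10 of 12 skeletal muscle, 7 of 9 leukocyte, 6 of 9 cornea and skin epithelium and 4 of 7 Mueller glia genes. Below 0 were 7 of 8 rod, 4 of 7 cone, 6 of 8 ganglion cell, 4 of 4 myelin and 3 of 4 pigment epithelium genes. The part of these lists in the 3 h values of the members was not tested. Across all zebrafish probes the test of injured against sham called 0% at an adjusted p under 0.05 at 3, 24 and 168 h (limma with Benjamini-Hochberg adjustment), with 630, 703 and 1101 probes at an unadjusted p under 0.05. Replicates are biological per the labels, and p-values measure the spread between pools.

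A value for injured over sham is given as a log2 ratio with its standard error (SE) from 1 limma fit of all 9 arrays, and as a fold only where the probe was detected on both sides at that time. This means at least 1 of 3 injured and 1 of 3 sham channels above the limit, not always on the same array. Of 27 combinations of probe and time, 11 met this condition. For dpysl5b at 3 h, 2 injured channels and 1 sham channel were above the limit, and no array had both. In these 11, 2 values were above 0 and 9 below. Of all probes, 7020, 6906 and 7061 were above 0 at 3, 24 and 168 h, and 7047, 7159 and 7006 below. The 11 values share probes and arrays, so their signs are not independent. Of the 11, 1 had an unadjusted p under 0.05 (background 4.48%, 5% and 7.83% of all probes at 3, 24 and 168 h), and 0 passed after adjustment. On all 3 arrays of the time, 1 of the 11 was above 0 (background 9.34% to 10.7% over the 3 times) and 1 was below 0 (background 10.5% to 12%).

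GAP-43 is the classical growth cone protein, and its gap43 probe stayed close to the detection limit. Its foreground had a median of 372.5 over 18 channels and ranged from 0.51 to 1.15 times the limit. It was detected in 1 injured channel at 24 h, in 1 sham channel at 168 h and in 1 of 4 control channels. These 3 detections lie in different conditions and do not separate injured from sham eyes.

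The log2 ratios of gap43 were 0.35, -0.73 and -0.49 at 3 h. At 24 h they were 0.34, 0.62 and 0.77, all above 0 (background 10.7%). At 168 h they were 0.50, 0.90 and -0.84. The ratios at 3 and 168 h lay on both sides of 0, and those between unoperated pools were 0.19 and -0.32.

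At 24 h the normalised log2 intensity of gap43 was 7.53 ± 0.14 (SD, n = 3) in injured and 6.95 ± 0.35 (SD, n = 3) in sham channels. With 1 of 3 injured and 0 of 3 sham channels detected no fold is given. These intensities still hold the dye difference. The fit of the log2 ratios, which takes it out, gave 0.64 ± 0.36 (SE) and did not pass (unadjusted p = 0.0946, adjusted p = 0.9898 in limma). At 168 h the sham channels spread more widely, 7.56 ± 0.96 (SD, n = 3) against 7.75 ± 0.06 (SD, n = 3) in injured channels. The smaller SD of the injured channels describes spots below the limit in all 3 of them.

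alcama, which encodes an adhesion molecule of growing ganglion cell axons in fish, gave the only value of the 11 with an unadjusted p under 0.05, that at 168 h. Its log2 ratios at 168 h were 1.37, 0.81 and 0.04, so all 3 were above 0 and the third was close to it. The foreground behind them was 2066, 1688 and 673 in the injured and 668, 1199 and 485 in the sham channels. The injured channel was the brighter one on each array, but these foregrounds are not corrected for dye, and injured RNA was in Cy3 on replicates 1 and 3. Across arrays, which differ in brightness, the 2 groups overlap. The sham spot of the third array was not above the limit.

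The fitted value of alcama at 168 h was 0.80 ± 0.35 (SE), or 1.74-fold, with a 95% interval of 0.05 to 1.55 on the log2 scale. Its unadjusted p was 0.0387 and its adjusted p 0.6192 in limma, so it did not pass, and 4.23% of all probes had an unadjusted p under 0.05 and a higher value in injured eyes at that time. Without 168 h replicate 1 the value was 0.42 (unadjusted p = 0.299 in limma), and the unadjusted p was 0.083 without 168 h replicate 2 and 0.052 without 3 h replicate 3 in limma. The authors' deposited table gives -0.026, where the mean of the same arrays without background correction was 0.549. Whether this row was matched to the right spot was not tested. The unoperated pools differed by 0.53 and 0.39 for the alcama probe.

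At the earlier times alcama had no common sign. Its log2 ratios were -0.12, 0.63 and 0.89 at 3 h and 0.07, -1.18 and -0.18 at 24 h. The fit gave 0.53 ± 0.35 (SE, unadjusted p = 0.156 in limma) and -0.37 ± 0.35 (SE, unadjusted p = 0.314 in limma). Of 9 differences between times for the 3 probes detected on all arrays, 1 had an unadjusted p under 0.05, that of alcama between 168 and 24 h. It is named after its value was seen: 1.17 ± 0.49 (SE, unadjusted p = 0.0306, adjusted p = 0.9962 in limma). The background of such differences was 4.19% for 24 minus 3 h, 5.03% for 168 minus 3 h and 4.29% for 168 minus 24 h. Without 168 h replicate 1 the alcama difference was 0.76 and without 24 h replicate 2 it was 0.83.

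Marker lists of other cell types had uneven signs at 168 h, though 0 of their genes passed after adjustment (limma) and 7061 of all probes were above 0 and 7006 below. Each gene was taken by its brightest probe. All 8 measured rod genes and 6 of 7 cone genes were below 0 (medians -1.25 and -0.62). Of the leukocyte and microglia genes 7 of 9 were above 0 (median 0.68). So were 4 of 4 pigment epithelium genes (median 0.58) and 9 of 9 cornea and skin epithelium genes (median 0.40). An unadjusted p under 0.05 (limma) was met by 6 rod and 3 cone genes, all lower, against 7.83% of all probes in either direction. It was also met by 4 leukocyte, 2 cornea and skin epithelium and 1 pigment epithelium genes, all higher. Of Mueller glia and of skeletal muscle genes 1 each was higher and 1 each lower, and of ganglion cell, lens and myelin genes 0 met it. The arrays were uneven. Medians on 168 h replicates 1, 2 and 3, with the dye effect left in, were -0.22, -1.80 and -1.15 for rod genes. Those of cone genes were 0.17, -1.15 and -0.60, and those of leukocyte genes 0.23, 0.41 and 0.09. Pigment epithelium genes had 0.17, 0.93 and 1.36, and cornea and skin epithelium genes 0.78, 0.10 and 0.31. Probes of the same gene could differ in sign. The rod gene gnat1 had -1.55 and 0.13, and the epithelium gene krt91 ran from -0.49 to 0.58. The summed normalised intensity of the rod list was 61444 to 62263 in injured and 75932 to 175832 in sham channels. That of the leukocyte list was 4754 to 10939 in injured and 4501 to 4649 in sham channels, and that of the pigment epithelium list 3128 to 6410 and 1887 to 2375. The ganglion cell list had 6 of 8 genes above 0 with a median of 0.06, and sums of 3008 to 5844 in injured and 3498 to 3962 in sham channels. Of skeletal muscle, Mueller glia, lens and myelin genes, 6 of 12, 3 of 7, 3 of 7 and 1 of 4 were above 0 at 168 h. The part of these lists in the alcama value was not tested. At 24 h, 8 of 9 cornea and skin epithelium genes were above 0 (median 1.05, array medians of 0.05, 2.25 and 0.84 on 24 h replicates 1, 2 and 3). So were 4 of 4 pigment epithelium and 7 of 9 leukocyte genes. Below 0 were 7 of 8 rod, 6 of 7 cone and 6 of 8 ganglion cell genes. The part of the lists in the member values at 24 h was not tested.

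**Figure D2:**
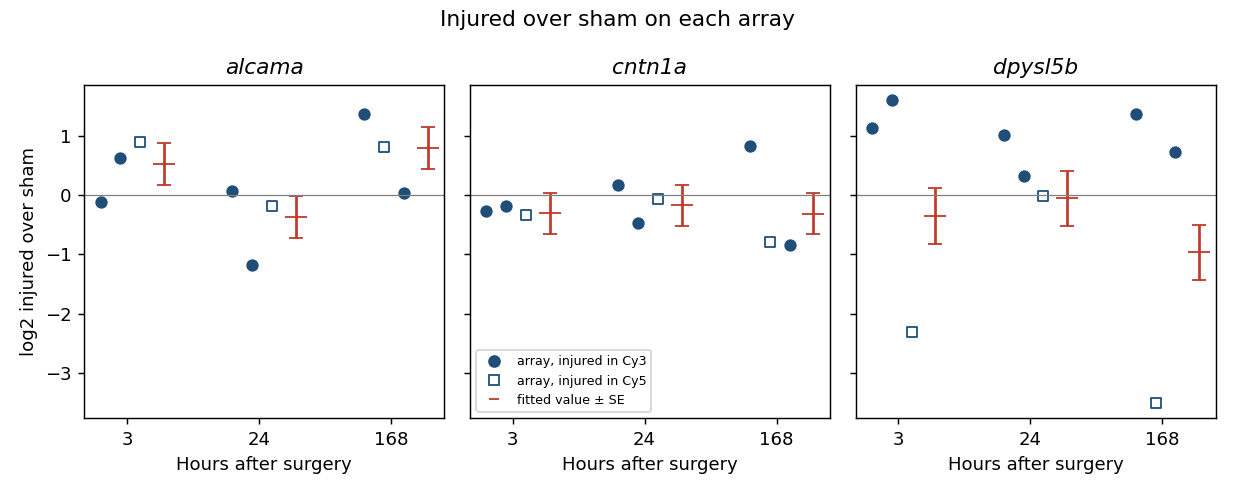
Log2 ratio of injured over sham on each array for alcama, cntn1a and dpysl5b, by hours after surgery (filled circles, injured RNA in Cy3; open squares, injured RNA in Cy5; red, fitted value ± SE). The 3 alcama arrays at 168 h lie between 0.04 and 1.37, the cntn1a arrays spread on both sides of 0 at 24 and 168 h, and the dpysl5b squares lie at or below 0 while its circles lie above it.

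cntn1a encodes contactin 1a, an anchored adhesion protein of axons, and was the best detected member, above the limit in 18 of 18 channels with foregrounds of 606 to 1986. Its log2 ratios at 3 h were -0.27, -0.18 and -0.33, all below 0 (background 10.5%). At 24 h they were 0.16, -0.48 and -0.07. At 168 h they were 0.83, -0.79 and -0.85, so the first array had the opposite sign of the other two.

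The fitted values of cntn1a were -0.31 ± 0.35, -0.17 ± 0.35 and -0.32 ± 0.35 (SE) at 3, 24 and 168 h, and none passed (unadjusted p of 0.391, 0.627 and 0.380 in limma). Their 95% intervals reached from -1.05 to 0.44, from -0.92 to 0.57 and from -1.06 to 0.43 on the log2 scale, so these data do not tell a change within those bounds from 0. The 168 h value was -0.82 without replicate 1, -0.01 without replicate 2 and 0.02 without replicate 3. A single array thus set the size of this value, and in the last case its sign.

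cntn2 encodes contactin 2, also called TAG-1, an axonal relative of contactin 1. Neither of its probes was detected in any of the 18 channels, and probe 2 was detected in 1 of 4 control channels. Foregrounds were 120 to 407 for probe 1 and 219 to 432 for probe 2, at most 0.98 and 0.97 times the limit. The local background of probe 1 varied between channels. It was low in Cy3 on 168 h replicate 3 (407 over 159) and above the foreground in Cy5 on 3 h replicate 1 (265 over 310). After background correction the mean log2 intensity was 7.40 for probe 1 and 7.21 for probe 2, against 7.32 for gap43. Lack of detection by this limit therefore does not show that cntn2 was absent or lower than gap43. No fold is given for cntn2 at any time.

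Of the collapsin response mediator genes, dpysl3, the gene of CRMP4, was measured by 2 probes that differed in detection. Probe 1 was detected in 3 of 18 channels and probe 2 in 7. After background correction, however, probe 1 was the brighter one, with a mean log2 intensity of 7.72 against 7.46. Probe 2 lay on a higher local background than probe 1 in every channel, as in Cy3 on 3 h replicate 1 (533 over 432, against 248 over 199 for probe 1). The counts of detected channels therefore do not rank the 2 probes by expression. At 24 h the log2 ratios of probe 2 were -0.60, 1.69 and 1.26, and those of probe 1 were -0.24, -0.35 and -0.66. The probes thus had opposite signs on 2 of the 3 arrays.

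Probe 2 of dpysl3 was detected in 2 injured and 0 sham channels at 3 h, and in 2 injured and 0 sham channels at 24 h. No fold is given, since no sham channel was above the limit. The fitted log2 ratio was 0.25 ± 0.42 (SE) at 3 h and 0.91 ± 0.42 (SE) at 24 h. It did not pass at 3 h (adjusted p = 0.9998 in limma) or at 24 h (unadjusted p = 0.0444, adjusted p = 0.9868 in limma; background of higher probes 2.23%). With the dye difference left in, the normalised log2 intensity of probe 2 at 24 h was 7.95 ± 1.04 (SD, n = 3) in injured and 7.16 ± 0.46 (SD, n = 3) in sham channels. The injured values of probe 2 were 6.92, 9.01 and 7.91, of which the first was not above the limit and the second stood apart. Probe 1 was detected in 1 injured and 0 sham channels at 24 h.

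At 168 h both dpysl3 probes were detected on both sides, but not on every array. Probe 1 was detected in 1 of 3 injured and 1 of 3 sham channels, both on replicate 2. Probe 2 was detected in 1 of 3 injured and 2 of 3 sham channels, and only replicate 1 had both spots above the limit. The log2 ratios were -0.45, 0.21 and -0.20 for probe 1 and -1.23, 0.66 and -1.16 for probe 2. For both probes the array with injured RNA in Cy5 was the one above 0. The fit gave -0.05 ± 0.33 and -0.45 ± 0.42 (SE, unadjusted p of 0.89 and 0.30 in limma), and probe 2 stood at -1.08 without 168 h replicate 2.

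dpysl5a and dpysl5b are the zebrafish gene pair of CRMP5. dpysl5a was detected in none of 18 channels and none of 4 control channels, with foregrounds of 177 to 399. Its log2 ratios lay between -0.92 and -0.30 on the 6 arrays with injured RNA in Cy3 and between 0.24 and 1.67 on the 3 arrays with injured RNA in Cy5. The fit placed this in the dye effect, 0.86 ± 0.19 higher in Cy5 (SE, adjusted p = 0.0093 in limma; background of probes higher in Cy5 2.51%). No fold of injury is given for it.

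dpysl5b was detected in Cy3 on all 9 arrays, with foregrounds of 470 to 1810, and in Cy5 on 2, with 246 to 729. Its log2 ratios were 1.13, 1.60 and -2.31 at 3 h, 1.02, 0.32 and -0.01 at 24 h, and 1.38, -3.51 and 0.72 at 168 h. On the 6 arrays with injured RNA in Cy3 all ratios were above 0 (mean 1.03), and on the 3 arrays with injured RNA in Cy5 all were below 0 (mean -1.95). The sign followed the dye and not the time.

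The dye effect of dpysl5b was -1.49 ± 0.28, lower in Cy5 (SE, adjusted p = 0.0032 in limma; background of probes lower in Cy5 8.55%). With this effect taken out, injured over sham was -0.35 ± 0.47, -0.05 ± 0.47 and -0.97 ± 0.47 (SE) at 3, 24 and 168 h. None passed (unadjusted p of 0.461, 0.909 and 0.056, adjusted p at 168 h 0.648 in limma). The 168 h value was -0.04 without 168 h replicate 2, and without a dye effect in the fit the 3 and 24 h values were 0.14 and 0.44. The unoperated pools, with no injury, differed by -1.65 and -0.59 as Cy5 over Cy3.

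The level of each probe was also followed over the 7 conditions, from the separate channels of all 11 arrays after removal of its mean dye difference, as normalised log2 intensity with the SD over 3 pools. alcama was highest in injured eyes at 168 h (9.54 ± 1.41), followed by unoperated (8.87 ± 0.88), injured at 3 h (8.78 ± 0.91), sham at 24 h (8.77 ± 0.83), sham at 168 h (8.72 ± 0.96), injured at 24 h (8.42 ± 0.31) and sham at 3 h (8.23 ± 0.54). The largest gap between neighbours in this order was 0.67, or 0.47 of the larger SD. No pair of neighbours therefore differed beyond its spread.

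cntn1a lay between 9.33 (injured at 168 h) and 9.59 (sham at 3 h) in the 6 operated conditions and at 10.6 ± 2.6 (SD, n = 3) in the unoperated pools. This SD also holds a difference between arrays. The pool in Cy5 on both control arrays stood at 8.98 on control array 1 and at 13.3 on control array 2. The largest gap of cntn1a, 1.03 between unoperated eyes and sham eyes at 3 h, was 0.39 of the larger SD. Both the unoperated mean and this gap depend on the bright spot of control array 2. dpysl5b was highest in sham eyes at 168 h (9.83 ± 0.73) and lowest in injured eyes at 3 h (8.74), with no gap beyond the larger SD. gap43 ran from 7.71 ± 0.13 in injured eyes at 168 h to 6.86 ± 0.31 in sham eyes at 24 h, and 1 of its 6 gaps, that between injured eyes at 168 and 24 h, was larger than the larger SD. Of the injured channels behind this gap, 0 of 3 were above the limit at 168 h and 1 of 3 at 24 h, so it describes spots near or below the limit. The probes of cntn2, dpysl3 and dpysl5a had no gap beyond the larger SD.

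Within the injured channels, alcama was higher by 0.77 ± 0.61 (SE) at 168 h than at 3 h, and within the sham channels by 0.49 ± 0.61 (SE), with adjusted p of 0.808 and 0.915 in limma's separate-channel fit. Over all probes 0.149% passed within the injured channels and 0% within the sham channels, and none of the member probes was among them. Against unoperated eyes 0% of all probes passed in any operated condition (adjusted p under 0.05 in limma), but 116 to 125 probes passed when control array 2 was left out. The control then rests on control array 1 alone. No operated pool shared an array with an unoperated pool, so in these comparisons the operation cannot be told apart from differences between arrays. The control levels rest on 3 pools, of which 1 was on both arrays. The tests against unoperated eyes took the channels of that shared pool as independent.

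**Figure D3:**
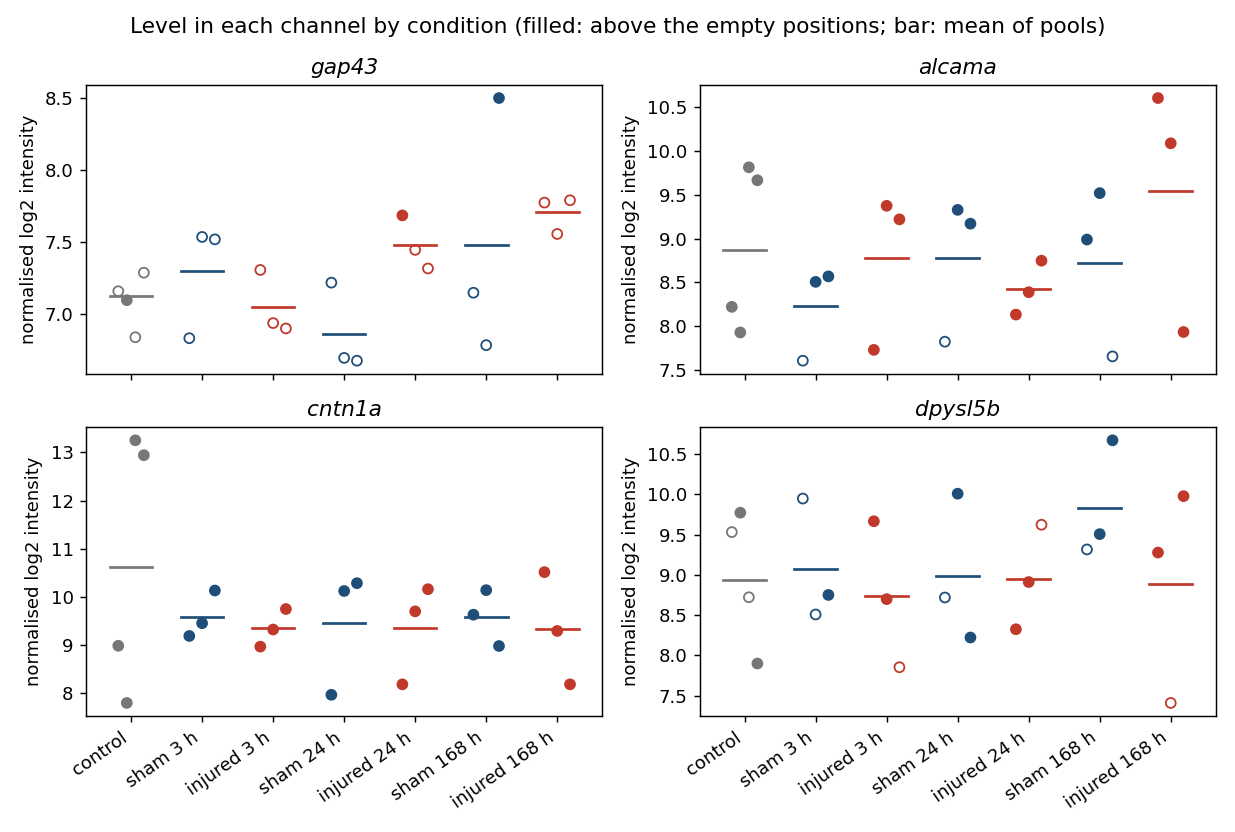
Normalised log2 intensity of gap43, alcama, cntn1a and dpysl5b in each channel by condition, after removal of the mean dye difference of the probe (filled, above the detection limit; open, not above it; bar, mean of the 3 pools; grey, unoperated; blue, sham; red, injured). The alcama values of injured eyes at 168 h reach from 7.94 to 10.6 and overlap all other conditions, and the cntn1a control points fall into a low and a high pair.

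Other genes of the same processes were counted from lists of growth cone, CRMP-related and axon adhesion genes, of which 24 of 78 were measured. At 3 h 14 were above and 10 below 0, at 24 h 10 and 14, and at 168 h 8 and 16. The medians were 0.08, -0.06 and -0.08, against 0.00, -0.01 and 0.00 over all probes, and 0 passed at any time (limma). The 7 member genes, each by its brightest probe, had medians of -0.23, -0.05 and 0.07.

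An unadjusted p under 0.05 was met by 2 of the 24 genes at 3 h, 0 at 24 h and 1 at 168 h, against 4.48%, 5% and 7.83% of all probes. At 168 h this was l1cama, a neuronal adhesion gene of the L1 family, at 0.71 ± 0.33 (SE, adjusted p = 0.632 in limma), with 0.43, 1.47 and 0.09 on the arrays. At 3 h it was cap1, an actin-binding protein gene, at -0.80 ± 0.34 (SE, adjusted p = 0.9998 in limma), with -0.08, 0.81 and -2.26 on the arrays and with other probes at 0.01 and -0.01. The second gene at 3 h, the cadherin cdh4, was detected in no channel and is given no fold. For both l1cama and cap1, 1 array lay far from the other two.

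**Figure D4:**
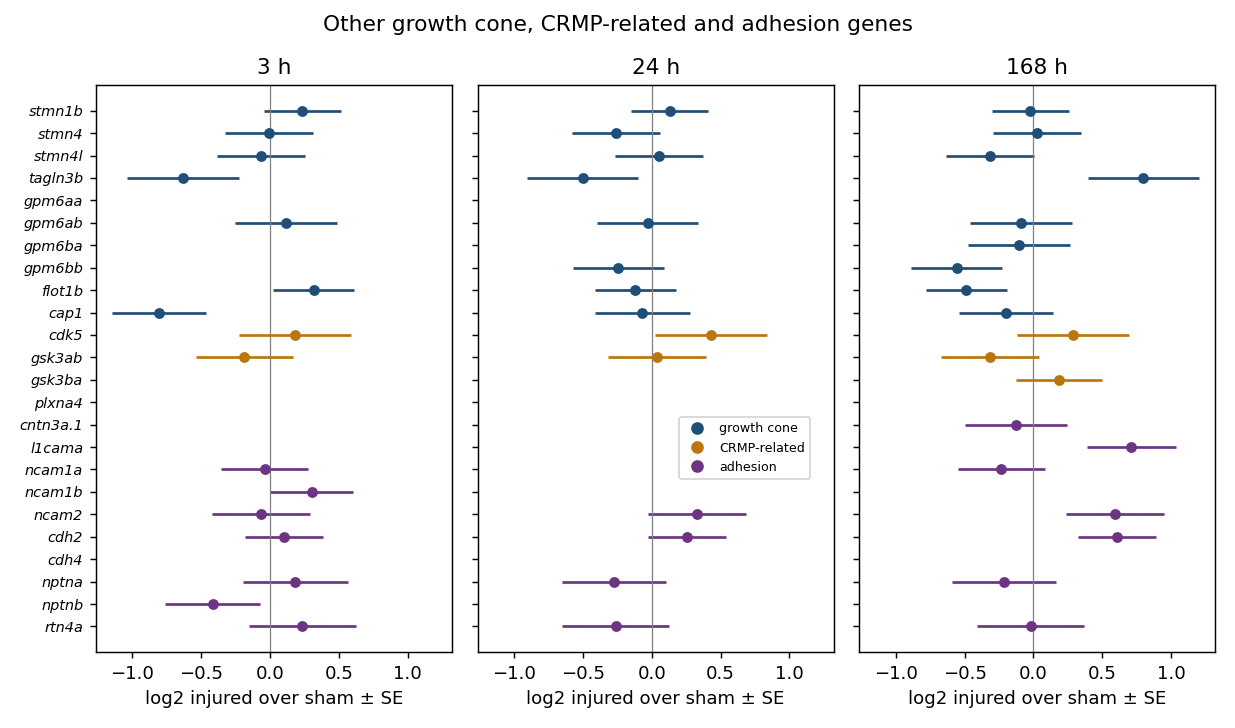
Fitted log2 ratio of injured over sham ± SE at 3, 24 and 168 h for the 24 measured growth cone (blue), CRMP-related (orange) and adhesion genes (purple), drawn only where the probe was detected on both sides at that time. The error bars of most genes cross or touch 0, and at 168 h l1cama lies at 0.71 and tagln3b, with a wider error, at 0.80, while cap1 lies at -0.80 at 3 h.

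For each member detected in at least 1 channel on all 9 arrays, the most similar genes were sought among 1566 named genes. They were ranked by Pearson's r of the 9 log2 ratios, as a description. For alcama these were pacc1 (r = 0.90), nfat5a (0.78) and neurod4 (0.76). For cntn1a they were vamp2 (0.99), mdh2 (0.95) and eif3hb (0.94). For dpysl5b they were dera (0.99), ctslb (0.97) and ddx27 (0.95), of which ctslb and ddx27 had dye effects of -1.55 and -1.52, near that of dpysl5b itself, and dera one of -0.28. The 9 points share arrays and dyes, so these values describe arrays as much as genes.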

How the data were processed

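Gene expression was measured on 2-colour oligonucleotide arrays, 3 per time and 2 for unoperated pools, with pooling of fish per the labels' protocols. For 14784 spots, Cy5 and Cy3 foreground and local background intensity are given per the file headers, not normalised by the authors. In the authors' deposited table each time has a log2 ratio per spot. It was made with limma per the submitters' processing notes, and the version and other steps are not given in the sources used here. The rows of the authors' deposited table were matched to spots by the order of the non-empty spots. The columns of that table correlated across probes at r = 0.873, 0.894 and 0.884 with the mean log2 ratios oriented by array name at 3, 24 and 168 h. With Cy5 over Cy3 the correlations were -0.452, -0.497 and -0.406. Of the probes, 84.7%, 81.2% and 83.5% lay within 0.02 of the oriented mean taken without background correction. The column medians were 0.006, 0.005, 0.011 and -0.115 (control), and the centring and the origin of the control column are unknown.

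With limma 3.58.1 in R 4.3.3, foreground means were corrected by normexp (offset 50) and loess-normalised within arrays, with weight 0 for control, empty and bad spots. The 9 arrays were fitted with 1 coefficient per time, signed by dye, and 1 dye effect, leaving 5 residual degrees of freedom. Benjamini-Hochberg adjustment ran over all zebrafish probes. Separate channels were scaled by Aquantile and fitted with the correlation within spots. The number of arrays limits the precision.

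Of the probes, 7755 were named by accession, 169 by symbol and 468 by an updated older symbol, using RefSeq records of GRCz12tu for names alone. The files state no genome build, so no coordinates are given, and whether 2 probes of a gene carry the same oligonucleotide is not known. All member probes are reported. Listed genes with an unadjusted p under 0.05 are named, by their brightest probe, as are the 3 genes most like each member detected on all 9 arrays. Members and lists were chosen with earlier results of these data known. The labels speak of 4 control samples, while the control arrays carry 3 pools.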

Additional observations from a re-analysis of the deposited data

How the results depend on the processing

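The 11 member values and the alcama difference between 168 and 24 h were recomputed with other settings. Counted over all values and settings this gave 237 results, of which 201 kept direction and side of the threshold and 33 changed sign. The cause was not tested for any of them. dpysl5b changed sign with subtracted background (1.72, 0.53 and 0.89 at 3, 24 and 168 h), with no dye effect or with only the arrays of the time (0.14 at 3 h and 0.44 at 24 h in both), in the authors' deposited table (0.125 and 0.423), and at 24 h with no background correction (0.18) and foreground medians (0.055). Leaving out single arrays gave dpysl5b values of -0.59 to 0.058 at 3 h, -1.39 to 0.50 at 24 h and -1.40 to -0.04 at 168 h. dpysl3 probe 1 at 168 h stood at 0.22 with no background correction, 0.037 with subtraction, 0.056 with print-tip loess, 0.183 in the authors' deposited table, and -0.13 to 0.037 without single arrays. Without single arrays cntn1a ranged from -0.38 to 0.046 at 24 h and from -0.82 to 0.018 at 168 h, and alcama from 0.37 to 0.76, -0.68 to -0.06 and 0.42 to 1.09 at 3, 24 and 168 h, and from 0.76 to 1.51 for the difference.

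With injured RNA read as Cy5 on every array, as the channel labels state, alcama stood at 0.31 at 24 h, -0.20 at 168 h and -0.51 for the difference, cntn1a at 0.043 and 0.081 at 3 and 24 h, and dpysl3 probes 1 and 2 at 0.29 and 1.02 at 168 h. dpysl5b passed there at 3 h (-1.68, adjusted p = 0.039 in limma) and 168 h (-1.87, adjusted p = 0.020 in limma), and this reading leaves no room for a dye effect. It also gave 387, 200 and 401 probes past the threshold at 3, 24 and 168 h, 1863 for the average over times and 832 for any time, against 0 in each. The authors' deposited table gives -0.026 for alcama at 168 h and -0.144 for cntn1a at 3 h.

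Counts past the threshold, 0 as reported, became 5 at 168 h and 1 for the average with no background correction, 1 at 168 h, 1 for 168 minus 3 h and 1 for 168 minus 24 h with subtraction, 1 at 168 h and 1 for the average with median centring, 1 at 168 h with foreground medians, and 0 to 10 at 168 h without single arrays. Of the 12 member values none passed outside the labels' dye reading (limma). In separate channels, 168 against 3 h in injured eyes gave 21 probes, 5 without control array 2 and 41 with no background correction, and in sham eyes 0 and, with no background correction, 3. Without control array 2 the comparisons of operated with unoperated eyes gave 123, 121 and 119 (injured at 3, 24 and 168 h) and 125, 116 and 118 (sham), against 0. There the control rests on control array 1 alone, and operation and array cannot be told apart. Each log2 ratio already pairs an injured pool with the sham pool on the same array. Pairing across times was not possible because the replicate numbers link no pools across times. With 3 pools per time, the standard errors of the member probes (0.32 to 0.47) limit what can be seen. Of the 9 probes, 6 were not detected on all 9 arrays, where 23.5% of all probes were detected.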

Other observations

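The cntn1a spot differed between the control arrays, although both carry the same unoperated pool in Cy5. Its foreground was 463 in Cy5 and 450 in Cy3 on control array 1, and 10196 and 9273 on control array 2. The 8 surrounding spots of control array 2 lay between 352 and 900 in Cy5 and between 325 and 1119 in Cy3. Of all zebrafish probes 0.633% differed as much between the Cy5 channels of these arrays. The operated eyes lay between 606 and 1986.

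For alcama the authors' deposited table gives 0.030, -0.405 and -0.026 at 3, 24 and 168 h, where the oriented mean of the arrays without background correction was 0.320, -0.349 and 0.549. For cntn1a it gives -0.144, -0.164 and -0.221, against means of -0.145, -0.165 and -0.222. For gap43 it gives -0.181, 0.328 and -0.051, against -0.184, 0.326 and -0.050.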
